A study of Mus musculus with 12 samples.

Results

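The Indian hedgehog and PTHrP loop of the growth plate was followed through 10 genes in mouse primary chondrocytes treated with the synthetic glucocorticoid dexamethasone (DEX). They were taken by name as the ligands Ihh and Pthlh, the receptors Pth1r, Ptch1 and Smo, the transcription factors Gli1, Gli2 and Gli3, and the inhibitors Hhip and Sufu. The array annotation listed 21 probe sets for 9 of the 10 genes, of 45101 probe sets and 18194 named genes on the array. It listed none under the single symbol Pthlh, the gene of PTHrP. Probe sets with several symbols were left unnamed and not searched, so Pthlh was not analysed here. A probe set is a group of short oligonucleotides that read 1 transcript, and its value is a linear intensity after GC-RMA background correction. Probe sets were tested where the mean of at least 1 group reached 50, which 14 probe sets of 8 members did (20897 probe sets and 11053 genes in all), and all 14 also did so on the vehicle arrays alone. The 7 others, among them all 4 of Hhip, were not tested.

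Chondrocytes of the tibiae, femurs and humeri of E15.5 CD1 mouse embryos were seeded as monolayers and given DEX at 100 nM for 6 hrs, DMSO vehicle for 6 hrs, DEX at 100 nM for 24 hrs or DMSO vehicle for 24 hrs. Each of these 4 groups had 3 arrays, numbered 1, 2 and 4. All groups shared the enzymatic digestion, serum-containing medium, ascorbic acid and beta-glycerophosphate, and no genetic change is named for any of them. RNA was taken from whole cultures of dispersed cells, outside the layered tissue, so fewer cells of a type and less RNA per cell cannot be told apart.

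Indian hedgehog is secreted by chondrocytes that leave the proliferative pool and become prehypertrophic. It binds Ptch1, which then stops holding back Smo, and the Gli factors, kept in check by Sufu, carry the signal to the nucleus. Hedgehog signalling induces PTHrP near the joint surface, and PTHrP acts through Pth1r on proliferating and prehypertrophic cells to delay hypertrophy and so limit the number of cells that make Ihh. Ptch1, Gli1 and Hhip are themselves hedgehog target genes and are commonly read as a measure of pathway activity.

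Array medians lay between 25.7 and 39.1. Of 12 established glucocorticoid targets, read as a check of the treatment labels, 6 passed as higher at 6 hrs and 5 at 24 hrs. Tsc22d3, a glucocorticoid-induced leucine zipper protein, had 945, 897 and 2219 with DEX and 82.3, 53.1 and 89.0 with vehicle at 6 hrs. All 19 resting and proliferating chondrocyte markers were tested, with Col2a1 at 3765 to 9709, while 1 of the 11 endothelial and blood markers with a probe set was. The arrays were hybridized on 4 days, each with DEX and vehicle side by side and none with both time points. On day 3, which held replicates 1 and 2 at 6 hrs, Gapdh was 0.49 to 0.74 log2 units brighter at its 3′ than at its 5′ probe set, against -0.33 to -0.22 on the 8 arrays of the other days. Those 4 arrays stand apart in several members, and results that rest on them are given with and without them.

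At 24 hrs the ligand Ihh, the PTHrP receptor Pth1r and the hedgehog receptor and target Ptch1 were each brighter on every DEX array than on any vehicle array. The mean differences were 1.55 to 1.94 times, and 8.45% of all tested probe sets also lay wholly above. For Ptch1 this held on the brightest probe set, while its dimmer tested set overlapped. None passed the test across all probe sets. With the hybridization day as a block in the fit, Pth1r and Ihh passed, against 2.18% of all tested probe sets. With the DEX and vehicle pair as a block only Pth1r did, against 2.15%. At 6 hrs none of the members separated. The brightest probe sets of Ptch1 and Gli1 and a dimmer set of Sufu were lower with DEX in all 3 pairs of arrays there. So were 18.7% of all tested probe sets.

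Ihh had intensities of 158, 176 and 158 with DEX and 94.6, 99.0 and 64.8 with vehicle at 24 hrs, for replicates 1, 2 and 4 (means 164 ± 10.6 and 86.2 ± 18.6, SD, n = 3 each). The lowest DEX array was thus well above the highest vehicle array. Its log2 fold change was 0.95 (SE 0.39, 95% interval 0.10 to 1.81, adjusted p = 0.706 in limma) and was 0.74, 0.83 and 1.29 in the pairs of replicates 1, 2 and 4. With the day as a block the adjusted p was 0.0421, with the DEX and vehicle pair as a block 0.0611, without the 4 arrays of day 3 it was 0.0796, and over all alternatives it ran over 0.0421 to 1.00. At 6 hrs Ihh had 31.7, 41.6 and 79.3 with DEX and 41.4, 26.9 and 73.1 with vehicle, and the pairs differed in sign (log2 fold change 0.12 with an SE of 0.39). Both group means at 6 hrs, 50.9 with DEX and 47.1 with vehicle, lay near the minimum for testing, and replicate 4 was the brightest array of each.

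Pth1r, the receptor for PTHrP and parathyroid hormone, had 626, 779 and 783 with DEX and 416, 389.8 and 373 with vehicle at 24 hrs (means 729 ± 89.8 and 393 ± 21.4, SD, n = 3 each). The groups did not overlap, and the pairs differed by 0.59, 1.00 and 1.07 on the log2 scale. Its log2 fold change was 0.89 (SE 0.43, 95% interval -0.07 to 1.84, adjusted p = 0.851 in limma). It was higher in 3 of 3 pairs and passed with the day as a block (SE 0.12, adjusted p = 0.00648), with the pairs as a block (0.0196), and when only the 6 arrays of 24 hrs were fitted (0.0403). The fit without day 3 gave the same 0.0403, since it leaves 1 array in each 6 hrs group and no further estimate of spread, and the values lay within 0.00648 to 1.00 over all alternatives. At 6 hrs it had 209.7, 204 and 564 with DEX and 193, 202 and 527 with vehicle, so that replicate 4 was far brighter than replicates 1 and 2 in both groups. The replicate 4 arrays were of day 4 and the others of day 3. Col10a1, the collagen of hypertrophic cartilage, stood apart in the same way, with 4547 with DEX and 4355 with vehicle in replicate 4 and 789 to 956 in the others, and its part in the Pth1r values was not tested. Within each pair DEX and vehicle of Pth1r differed by only 0.0091 to 0.12 log2 units. Over both times together Pth1r had a log2 fold change of 0.48 (SE 0.31, adjusted p = 1.00) and passed with either block (adjusted p = 0.0152 for the day and 0.0337 for the pair, within 0.0152 to 1.00 over all alternatives).

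**Figure D1:**
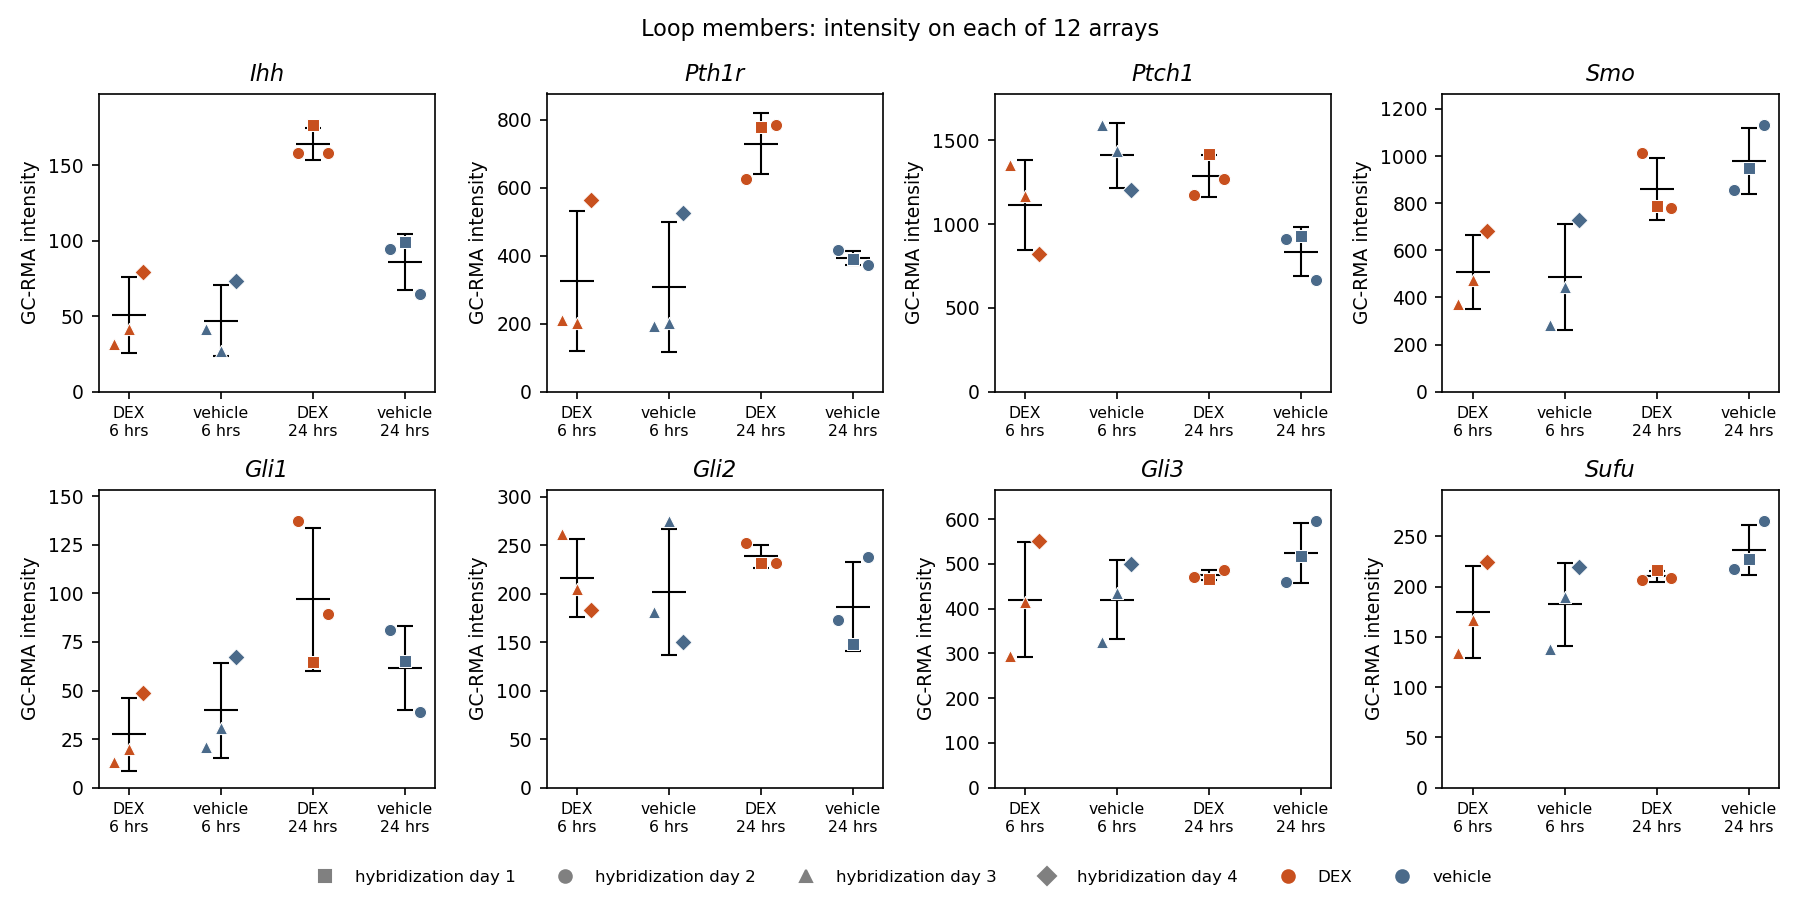
GC-RMA intensity (linear scale, starting at 0) of the brightest tested probe set of each of the 8 tested members on the 12 arrays, by treatment and time. Points are arrays with their hybridization day by shape, bars the mean and lines the SD (n = 3); at 24 hrs all DEX points of Ihh, Pth1r and Ptch1 lie above the vehicle points, and at 6 hrs the day 4 diamonds of Pth1r (564 and 527) stand far above the day 3 triangles.

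Ptch1 encodes the membrane protein that binds hedgehog ligands. Its brightest probe set, 1428853_at, had 1172, 1417 and 1268 with DEX and 909.5, 929 and 667 with vehicle at 24 hrs (means 1286 ± 123 and 835 ± 146, SD, n = 3 each). The lowest DEX array again lay above the highest vehicle array. The log2 fold change was 0.63 (SE 0.22, 95% interval 0.15 to 1.11, unadjusted p = 0.0146, adjusted p = 0.573 in limma), and no alternative brought it past the threshold (adjusted p = 0.0594 to 1.00, and 0.178 without day 3). At 6 hrs the order was turned: Ptch1 had 1351, 1165 and 820.2 with DEX and 1588, 1436 and 1204 with vehicle. The groups overlapped there, but each DEX array was below its own vehicle array, by 0.23, 0.30 and 0.55 log2 units (log2 fold change -0.36 with an SE of 0.22, 95% interval -0.84 to 0.12, adjusted p = 1.00, and 0.427 with the day as a block). Lower in 3 of 3 pairs at 6 hrs and higher in 3 of 3 at 24 hrs was a pattern of 2.83% of all tested probe sets, and the opposite one of 3.04%.

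The DEX effect on Ptch1 at 24 hrs minus that at 6 hrs was 1.00 on the log2 scale (SE 0.31, 95% interval 0.32 to 1.68, unadjusted p = 0.00818, adjusted p = 1.00 in limma). It did not pass with the day (adjusted p = 0.298) or the pairs (0.276) as a block either, within 0.276 to 1.00 over all alternatives. The dimmer tested probe set of Ptch1, 1450824_at, had log2 fold changes of the same signs (-0.10 at 6 hrs and 0.48 at 24 hrs, SE 1.00 each). Its pairs did not all go one way at either time. It had 9.40, 5.80 and 63.8 with DEX and 6.13, 8.53 and 81.3 with vehicle at 6 hrs, and 104, 101 and 51.9 with DEX and 61.6, 44.6 and 74.6 with vehicle at 24 hrs. Its DEX and vehicle arrays overlapped at both times, and on day 3 its 4 values were only 5.80 to 9.40. The remaining probe set of Ptch1, 1439663_at, stayed at or below 22.5 on every array.

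Gli1 is the Gli factor whose own transcription is the most direct hedgehog readout. It had 137, 64.9 and 89.2 with DEX and 81.1, 65.0 and 38.8 with vehicle at 24 hrs. Replicates 1 and 4 were higher with DEX, replicate 2 was nearly equal, and the groups overlapped (log2 fold change 0.65 with an SE of 0.54, 95% interval -0.54 to 1.84, adjusted p = 1.00). Within day 2, which held replicates 1 and 4, the difference was 0.98, and on day 1 it was -0.003. At 6 hrs Gli1 had 13.3, 20.1 and 48.9 with DEX and 21.2, 30.9 and 67.5 with vehicle, lower with DEX in each pair but overlapping between the groups (log2 fold change -0.59 with an SE of 0.54, adjusted p = 1.00). Gli1 and Ptch1 thus had the same order of signs at 6 and 24 hrs, with both Gli1 means at 6 hrs, 27.4 with DEX and 39.8 with vehicle, below the minimum for testing. Hhip, the hedgehog target that binds the ligand at the cell surface, could not be read this way, since its 4 probe sets lay between 5.07 and 53.2 on all arrays and no group mean exceeded 39.9.

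**Figure D2:**
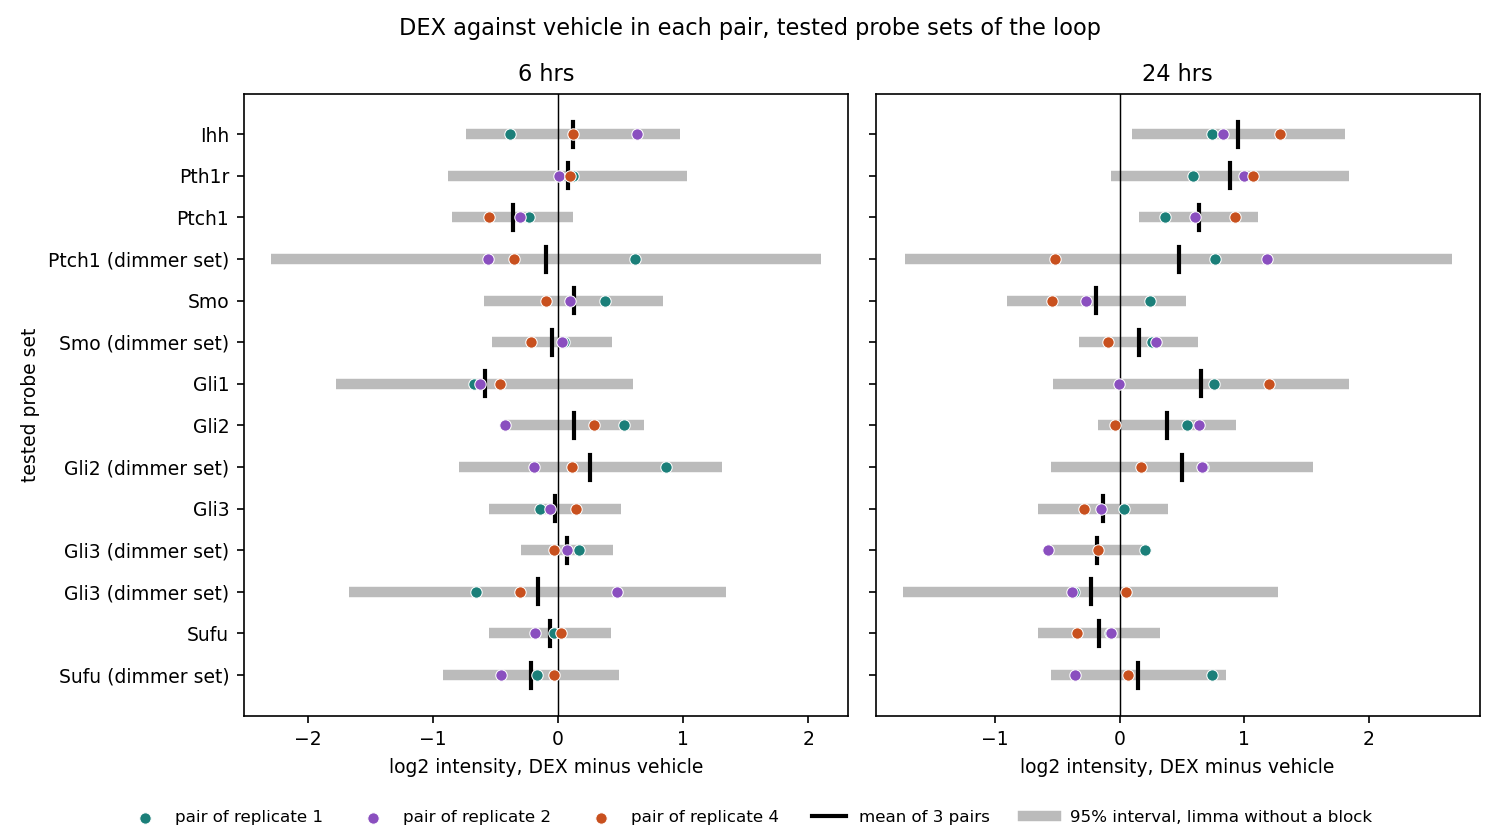
Log2 difference between the DEX array and the vehicle array of the same replicate number for each of the 14 tested probe sets, at 6 hrs (left) and 24 hrs (right). Points are the 3 pairs, black ticks their mean and grey bars the 95% interval of limma without a block; at 24 hrs the pairs of Ihh (0.74 to 1.29) and Pth1r (0.59 to 1.07) lie wholly above 0, and the pairs of the brightest Ptch1 probe set change sides between the times.

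None of the members that carry the signal inside the cell passed at either time. Smo, the transducer that Ptch1 holds back, had 1012, 788 and 778 with DEX and 854, 948 and 1129.7 with vehicle at 24 hrs (log2 fold change -0.19 with an SE of 0.33, 95% interval -0.90 to 0.53). Its other tested probe set, 1427049_s_at, had 877, 862 and 877 with DEX and 731, 705 and 936 with vehicle, a log2 fold change of 0.15 (SE 0.22) and thus of the other sign. Both sets overlapped between the groups at 24 hrs, and at 6 hrs their log2 fold changes were 0.12 and -0.05.

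Gli2, the main activator of the 3 factors, had 252, 232 and 232 with DEX and 173, 149 and 238 with vehicle at 24 hrs on its brightest probe set, where the groups overlapped through replicate 4 (log2 fold change 0.38 with an SE of 0.25, adjusted p = 1.00). On the dimmer set 1446086_s_at it had 132, 127 and 118 with DEX and 82.9, 80.7 and 105 with vehicle, which did not overlap (log2 fold change 0.50 with an SE of 0.48). This set ends in _s_at, a class of probe sets that may read more than 1 transcript.

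Gli3, largely a repressor in limb cartilage, had 470.2, 467 and 487 with DEX and 460.1, 517 and 595 with vehicle at 24 hrs (log2 fold change -0.13 with an SE of 0.24). Its other sets had -0.18 and -0.23 at 24 hrs, and the 3 log2 fold changes at 6 hrs were -0.02, 0.07 and -0.16. Sufu, which tethers Gli proteins in the cytoplasm, had 206, 216 and 208 with DEX and 218, 227 and 265 with vehicle at 24 hrs. Every DEX array lay below every vehicle array, but the gap was small (log2 fold change -0.16 with an SE of 0.22, 95% interval -0.65 to 0.32, adjusted p = 1.00). The dimmer Sufu set 1431713_at went the other way in 2 of 3 pairs at 24 hrs, with 56.9, 54.9 and 57.6 with DEX and 34.1, 70.3 and 54.8 with vehicle. The 95% intervals of Smo, Gli3 and Sufu at 24 hrs reached up to 0.53, 0.39 and 0.32 on their brightest sets, whereas that of Gli1 reached 1.84.

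Counted over the members, 0 of 14 probe sets passed at 6 hrs, against 0.225% of all tested probe sets, and 0 of 14 at 24 hrs, against 0.287%. The same count was 0 over both times together (background 0.747%) and 0 for the difference between the time points (background 0%). In the fit without a block 2 of the 8 members had an unadjusted p under 0.05 at 24 hrs (Ihh and Ptch1) against 6.24% of all tested probe sets, and 0 at 6 hrs against 3.66%. Over both times 0 did, against 5.65% of all, and for the difference between the time points 1 (Ptch1), against 3.63%. With the day as a block 2 of 14 passed at 24 hrs (Ihh and Pth1r) against 2.18% of all, and 1 over both times (Pth1r) against 2.87%. With the pair as a block 1 passed at 24 hrs and 1 over both times, each that of Pth1r, against 2.15% and 3.20% of all. Every DEX array was above every vehicle array at 24 hrs in 4 of the 14 probe sets (28.6%), those of Ihh and Pth1r, the brightest of Ptch1 and the dimmer of Gli2, where 8.45% of all tested probe sets did so. Every DEX array was below in 1 of 14 (7.1%), that of Sufu, against 10.9% of all. At 6 hrs no member did either, against 3.04% above and 2.96% below. The median log2 fold change of the 8 members, each through its brightest probe set, was 0.03 at 6 hrs and 0.51 at 24 hrs. Over all probe sets tested, dimmer ones included, it was -0.01 and -0.03, so the 2 medians are of unlike measures. The dimmer tested sets of the members had -0.23 to 0.50 at 24 hrs.

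The DNA around the start sites is shown for Ihh, Ptch1 and Pth1r, since these were the members whose DEX arrays all lay above the vehicle arrays at 24 hrs on their brightest probe sets. RefSeq start-site windows of 300 bases (assembly GRCm38.p6) matched 9 of the 10 members, with 11 windows in all and none for Gli1. The windows are Ihh at chr1:74951623-74951922, Ptch1 at chr13:63565686-63565985, and for Pth1r chr9:110747096-110747395, chr9:110743637-110743936 and chr9:110742561-110742860, all on the minus strand. Pth1r has 3 listed start sites, and the single probe set of this gene does not tell them apart. The Ptch1 window lies inside the gene (chr13:63508328-63573460), downstream of its annotated 5′ end, and no window covered that end. Capitals mark the first 50 bases transcribed, and lower case the 250 bases before them.
Ihh: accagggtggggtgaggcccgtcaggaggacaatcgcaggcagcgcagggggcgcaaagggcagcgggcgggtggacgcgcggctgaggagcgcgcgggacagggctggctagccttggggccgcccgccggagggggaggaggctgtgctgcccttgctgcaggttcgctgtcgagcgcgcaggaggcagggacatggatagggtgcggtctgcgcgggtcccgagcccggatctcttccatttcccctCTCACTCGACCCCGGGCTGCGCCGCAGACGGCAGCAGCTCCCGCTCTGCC
Ptch1: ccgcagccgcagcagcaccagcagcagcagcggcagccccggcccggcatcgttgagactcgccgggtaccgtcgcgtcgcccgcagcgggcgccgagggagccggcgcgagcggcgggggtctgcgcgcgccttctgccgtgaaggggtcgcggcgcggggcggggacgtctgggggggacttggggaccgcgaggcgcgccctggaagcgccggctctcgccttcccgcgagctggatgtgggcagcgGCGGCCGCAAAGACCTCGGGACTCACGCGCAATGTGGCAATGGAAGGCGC
Pth1r upstream window: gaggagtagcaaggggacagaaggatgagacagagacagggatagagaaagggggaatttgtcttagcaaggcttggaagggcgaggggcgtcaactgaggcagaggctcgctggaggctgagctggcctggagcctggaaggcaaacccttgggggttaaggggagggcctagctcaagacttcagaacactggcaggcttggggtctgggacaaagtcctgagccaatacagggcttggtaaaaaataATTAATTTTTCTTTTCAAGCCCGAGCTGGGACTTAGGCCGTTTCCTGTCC
Pth1r middle window: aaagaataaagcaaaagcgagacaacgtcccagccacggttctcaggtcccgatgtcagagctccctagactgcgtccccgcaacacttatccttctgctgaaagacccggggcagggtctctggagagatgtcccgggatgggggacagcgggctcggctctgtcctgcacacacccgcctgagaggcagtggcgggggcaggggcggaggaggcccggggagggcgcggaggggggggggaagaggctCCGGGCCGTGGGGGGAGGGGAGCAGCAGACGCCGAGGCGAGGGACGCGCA
Pth1r downstream window: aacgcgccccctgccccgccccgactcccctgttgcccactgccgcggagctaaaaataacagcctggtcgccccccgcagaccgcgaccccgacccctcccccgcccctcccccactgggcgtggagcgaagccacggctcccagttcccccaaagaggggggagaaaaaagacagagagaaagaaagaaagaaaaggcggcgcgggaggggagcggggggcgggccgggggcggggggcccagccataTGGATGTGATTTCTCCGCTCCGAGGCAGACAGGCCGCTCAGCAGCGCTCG
The windows were searched on both strands for the Gli binding site TGGGTGGTC, exact or with up to 1 mismatch, and for ACANNNTGT, the core of the palindromic glucocorticoid receptor site. These letters occurred in none of the 11 member windows, while 0.253%, 6.74% and 6.85% of 32851 windows of the same length held them. The search says nothing of sites outside the windows.

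Between the time points, the vehicle cultures themselves had unequal means in several members. Ihh was brighter at 24 than at 6 hrs (means 86.2 and 47.1, log2 difference 0.97 with an SE of 0.39, adjusted p = 0.137), as was Smo (977 and 486, log2 difference 1.10 with an SE of 0.33, adjusted p = 0.0868). Ptch1 was dimmer at 24 than at 6 hrs on its brightest probe set (835 and 1409, log2 difference -0.76 with an SE of 0.22, adjusted p = 0.0856), whereas the dimmer set had a log2 difference of 1.86 (SE 1.00). None of the 14 probe sets passed in limma (background 0.00957%), and 3 of the 8 members had an unadjusted p under 0.05, as did 30.5% of all tested probe sets. Since no day held both times, time and hybridization day cannot be told apart.

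These time differences moved with single arrays and with day 3. Without vehicle replicate 4 of 6 hrs, the 6 hrs vehicle group held only arrays of day 3. In that fit 7 of 14 member probe sets passed, where 31.5% of all tested probe sets did so. Among the 7 were those of Ihh (1.35, adjusted p = 0.0251, within 0.0251 to 0.677 over all alternatives), Smo (1.45, adjusted p = 0.0193, within 0.0193 to 0.382) and Ptch1 (-0.87, adjusted p = 0.0264, within 0.0264 to 0.384). Without DEX replicate 4 of 6 hrs, 2 of 14 passed, against 13.8% of all. Without the 4 arrays of day 3, none passed, against 1.01% of all, the log2 difference of Ihh was 0.21 and that of Smo 0.41, and Pth1r (-0.43 in place of 0.52) and Gli1 (-0.20 in place of 0.74) changed sign. Ptch1 kept its direction there (-0.54).

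**Figure D3:**
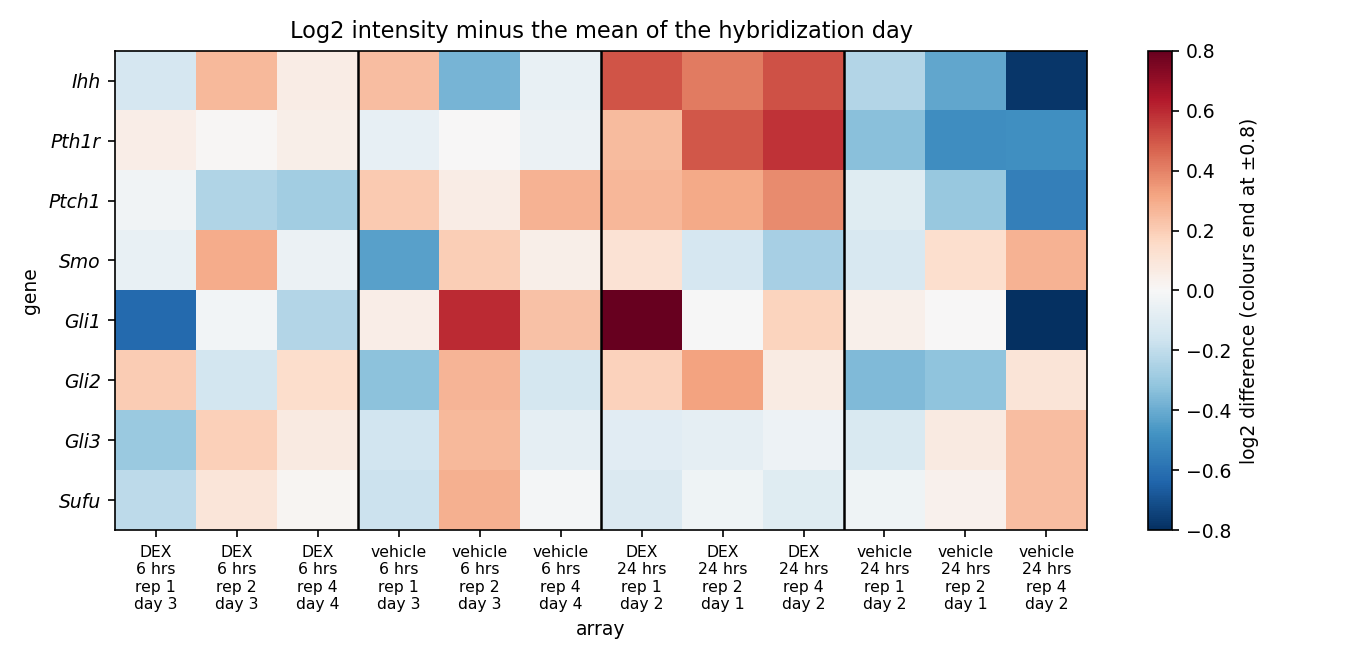
Log2 intensity of the brightest probe set of each tested member minus the mean of its hybridization day, with the 12 arrays as columns and colours ending at 0.8 in either direction. Ihh, Pth1r and Ptch1 are red on the 3 DEX arrays of 24 hrs (0.25 to 0.58) and blue on the 3 vehicle arrays of 24 hrs (-0.78 to -0.10), while Gli3 and Sufu run alike over the arrays.

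Across the 12 arrays, with the mean of the hybridization day subtracted from log2 intensities, Ihh, Pth1r and Ptch1 ran together (Pearson's r 0.85 for Ihh and Pth1r, 0.73 for Ihh and Ptch1, 0.77 for Pth1r and Ptch1), and Gli3 ran with Sufu (0.94). These points share treatment, replicate and day, and genes measured on one array are not independent, so the values are a description. Without the centring the pattern was another one: r was 0.93 for Ihh and Pth1r but -0.20 for Ihh and Ptch1. Of 11052 other genes, those whose centred profile was most like Ihh were Dnase2a (0.97), Rbl2 (0.95), Prr5 (0.93), Esyt2 (0.93) and Bahd1 (0.93). Those most like Pth1r were Loxl3, a lysyl oxidase-like enzyme (0.99), Ppa1 (0.98), Fuca2 (0.96), Serinc5 (0.96) and Cybrd1 (0.96), of which Serinc5 passed at 24 hrs (log2 fold change 1.44, adjusted p = 0.0336). Those most like Ptch1 were Cdk6, a cell cycle kinase (0.97), Nek3 (0.96), Cfap300 (0.95), Tmem120a (0.95) and Dixdc1 (0.95).

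The pathway genes around the members were read from 5 lists, with 82 different genes tested. Of these 0 passed at 6 hrs and 0 at 24 hrs, against 0.225% and 0.287% of all tested probe sets. Over both times together 3 passed, against 0.747% of all. The 3 became 1 without vehicle replicate 1 or 2 of 6 hrs, DEX replicate 2 or 4 of 24 hrs, or vehicle replicate 1 or 4 of 24 hrs, and 0 without the 4 arrays of day 3. Among 13 tested hedgehog ligands, release factors and co-receptors, 0 passed in any DEX comparison, and the list median at 24 hrs was -0.05 beside -0.03 over all probe sets. The co-receptors Boc, Cdon and Gas1 had log2 fold changes at 24 hrs of 0.43, -0.49 and -0.53, and none of them passed. Among 22 genes of hedgehog transduction and the primary cilium 0 passed either, with medians of 0.03 at 6 hrs and -0.04 at 24 hrs.

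The 12 tested hedgehog target genes other than the members had a median of -0.24 at 24 hrs, and 4 of 12 were above 0. Cdon and Gas1, which hedgehog signalling represses, are in this list as well as among the co-receptors. Without these 2, left out after the values were seen, the median of the other 10 was -0.05, beside -0.03 over all probe sets. The lowest was Sfrp1, a secreted Wnt inhibitor, with 177, 111 and 199.8 with DEX and 310.3, 178 and 448 with vehicle at 24 hrs. It was lower in each pair with overlapping groups (log2 fold change -0.89, adjusted p = 0.809, and 0.0253 with the day as a block). Foxc1 was the highest at 6 hrs, at 0.50 (adjusted p = 1.00).

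Downstream of Pth1r, which raises cyclic AMP, 1 of 25 tested genes fell and none rose over both times. Of all tested probe sets 0.167% fell and 0.579% rose. Pde4b, an enzyme that degrades cyclic AMP, had 102, 115 and 72.5 with DEX and 195, 241 and 145 with vehicle at 6 hrs. At 24 hrs it had 94.2, 69.5 and 82.4 with DEX and 181, 137 and 161 with vehicle. The groups did not overlap at either time, and the log2 fold change over both was -0.98 (SE 0.17, adjusted p = 0.0232). With the day as a block Crem (-0.46, adjusted p = 0.0271) and Nr4a1 (-0.62, adjusted p = 0.0309), both transcription factors induced by cyclic AMP, passed as well, against 0.0998 and 0.0943 without it. In the fit with that block 3 of the 25 fell, against 1.07% of all tested probe sets. Ramp2, an accessory protein of Pth1r and related receptors, had 177, 73.3 and 218 with DEX and 79.8, 45.6 and 69.2 with vehicle at 24 hrs, which overlapped through replicate 2 (log2 fold change 1.16, adjusted p = 0.775).

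Among 16 tested genes that set the pace of hypertrophy, 2 rose over both times, against 0.579% of all tested probe sets. Foxa2, a transcription factor of the hypertrophic programme, had 113, 108 and 123 with DEX and 61.3, 48.7 and 60.2 with vehicle at 6 hrs, and 121, 186 and 149 with DEX and 85.1, 85.5 and 64.5 with vehicle at 24 hrs (log2 fold change 0.98 with an SE of 0.14, adjusted p = 0.00753). Cdkn1c, the cell cycle inhibitor p57, had 3608, 4469.6 and 4734 with DEX and 1757, 2473 and 2427 with vehicle at 24 hrs (0.63 over both times, SE 0.12, adjusted p = 0.0470). Neither passed at a single time point without a block. With the day as a block Foxa2 passed at 6 hrs (adjusted p = 0.0138) and at 24 hrs (0.0152), and Cdkn1c at 24 hrs (0.0152). In that fit 0.67% of all tested probe sets passed as higher at 6 hrs and 1.48% at 24 hrs. Sox9, the chondrocyte master regulator, had log2 fold changes of 0.38 at 6 hrs and 0.19 at 24 hrs, and Runx2 was not analysed here.

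**Figure D4:**
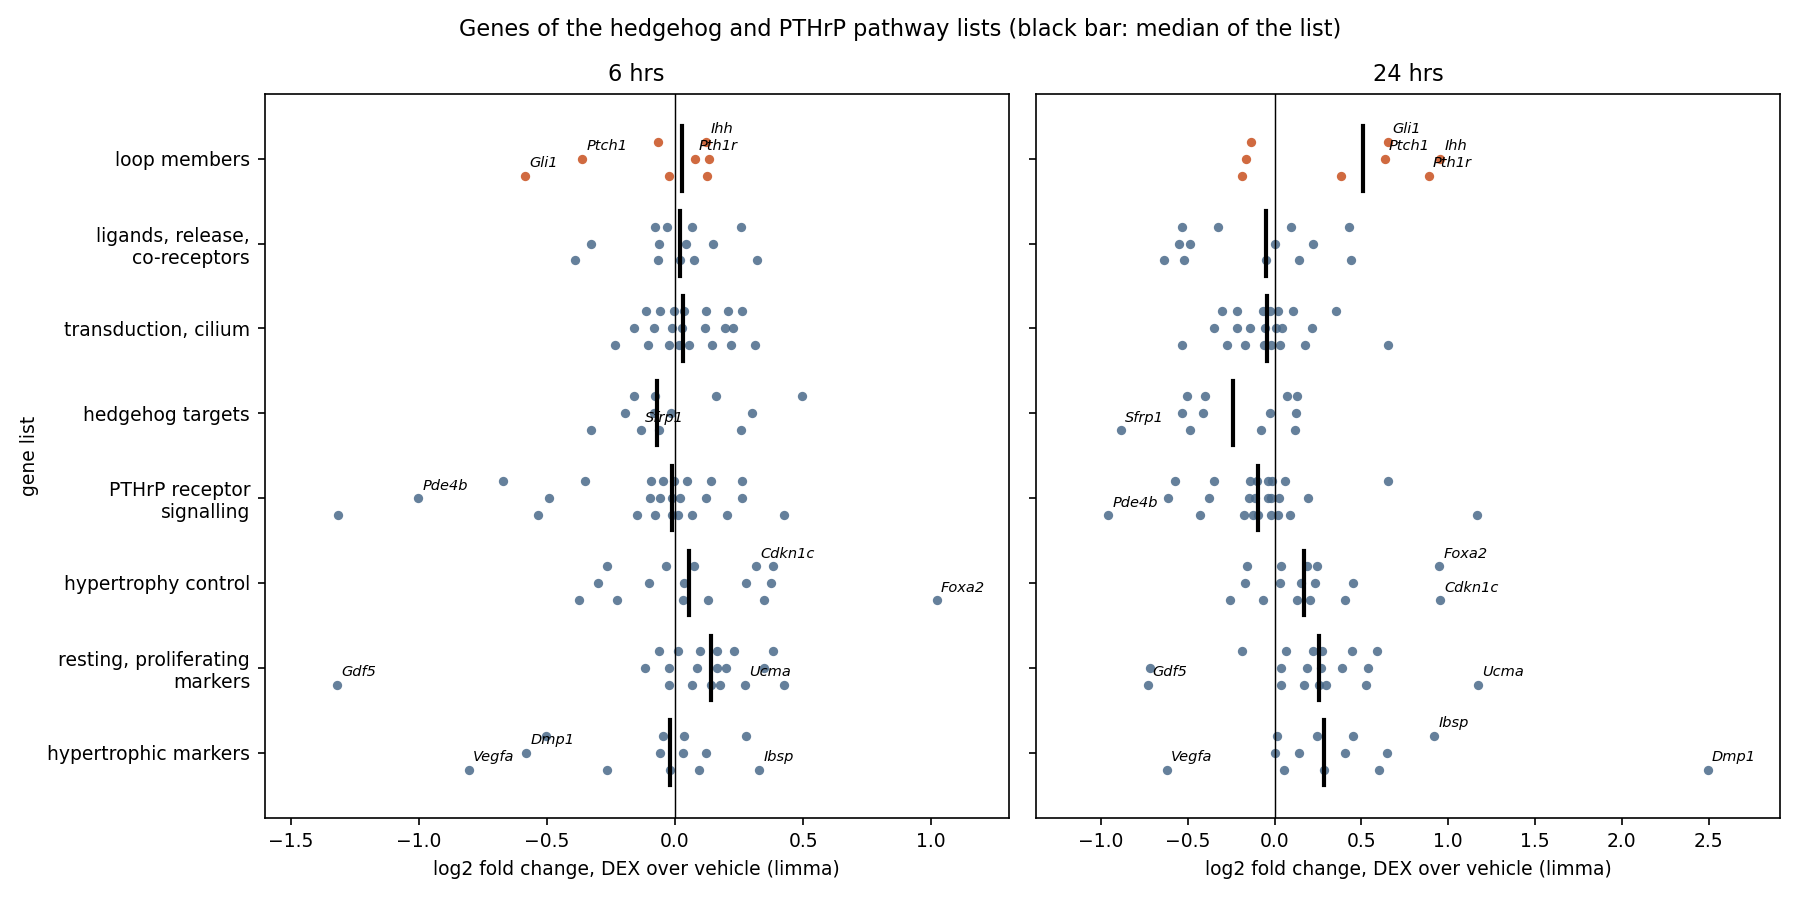
Log2 fold change of DEX over vehicle (limma) at 6 hrs (left) and 24 hrs (right) for the 8 tested loop members and the genes of 7 lists, 1 point per gene, with the median of each list as a black bar. The median of the loop members is 0.51 at 24 hrs, beside 0.28 for the hypertrophic markers; points are spread vertically only to separate them.

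Markers of the cell states that the loop connects were read at 24 hrs. Of 13 tested hypertrophic markers 12 were above 0 (median 0.28), where 45.1% of all tested probe sets were, and 0 passed. The exception was Vegfa, at -0.62 and lower with DEX in all 3 pairs. Some of the 12 were close to 0, such as Bmp6 (0.0044) and Ackr3 (0.011). The summed intensity of the 13 was 9940 to 11719 on DEX arrays and 7350 to 9590 on vehicle arrays, which did not overlap. Within it Ibsp alone averaged 2439 with DEX and 1290 with vehicle. With the day as a block 3 of 13 passed, against 2.18% of all tested probe sets. They were Ibsp, a mineral-binding matrix protein (0.92, adjusted p = 0.0304), Panx3, a channel of hypertrophic cells (0.60, adjusted p = 0.0214), and Dmp1, a matrix protein of mineralizing tissue (2.50, adjusted p = 0.0466). Dmp1 averaged 83.9 ± 67.0 with DEX and 11.6 ± 3.33 with vehicle (SD, n = 3 each). Col10a1 had 1333, 1796 and 1345 with DEX and 988, 1395 and 1003 with vehicle (0.41, adjusted p = 1.00), and Mmp13 differed by 0.05. Of 19 resting and proliferating markers 16 were above 0 (median 0.25). Gdf5, made by joint-forming cells, passed as lower over both times (-1.03, SE 0.20, adjusted p = 0.0435), while Col2a1 and Acan differed by -0.19 and 0.04 at 24 hrs.

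Markers of other cells were read beside these results at 24 hrs, and none passed without a block. With the day as a block 2 passed, against 2.18% of all tested probe sets. They were Myod1, a skeletal muscle transcription factor (-0.57, adjusted p = 0.0316), and Postn, a matrix protein of the perichondrium and periosteum (1.40, adjusted p = 0.00521). The 14 tested osteoblast and perichondrial markers had a median of -0.05, with 5 above 0, and sums of 14602 to 21866 on DEX arrays and 16415 to 19046 on vehicle arrays. Of the 11 tested skeletal muscle markers 1 was above 0 at 24 hrs, with a median of -0.57 and sums of 672 to 1400 on DEX arrays and 755 to 2241 on vehicle arrays. The 9 tested macrophage and osteoclast markers had a median of -0.26 and sums of 1095 to 1138 with DEX and 1258 to 1380.5 with vehicle, which did not overlap. The 6 tested epithelial and skin markers had a median of -0.08 and sums of 551 to 755 with DEX and 920.3 to 1389 with vehicle, which did not overlap either. Within these sums Epcam averaged 161 with DEX and 473 with vehicle, and Krt18 187 and 395. Krt5 and Krt10 were higher with DEX in all 3 pairs. At 6 hrs Epcam had the other order, with means of 380 with DEX and 136 with vehicle. The part of these cells, and of the share of hypertrophic cells, in the values of Ihh, Pth1r and Ptch1 was not tested.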

How the data were processed

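RNA of primary chondrocytes was measured on 12 Affymetrix MOE 430 2.0 arrays, 3 per group, with 45101 probe sets each. The authors ran GC-RMA in GeneSpring GX, and what they deposited is 1 table of linear intensity values, 0 of them at or below 0. The submitters' processing notes name GCRMA and no version of it. Every array column was mapped, leaving 0 unused. Arrays have no read depth, so their number and the signal over background limit precision. The methods describe separate cell isolations, but the labels do not tie arrays to them, so p-values measure the spread between arrays.

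Log2 was taken with no pseudocount. A probe set entered the test if any group's mean reached 50, a minimum taken after the methods. Differences were tested with limma 3.58.1 in R 4.3.3, with the 4 group means estimated together from the 12 arrays and nothing blocked, and the Benjamini-Hochberg adjustment ran across the 20897 probe sets that entered, at a threshold of 0.05. The code was checked on simulated data. Tables and figures were made with Python 3.11.15 and matplotlib 3.10.9. The platform annotation gave the symbols (34958 probe sets with 1 symbol, 932 with several and left unnamed, 9211 with none listed), of which 34754 matched current RefSeq genes and 0 changed. Where a gene had several tested probe sets, the one brightest on average stands for it, and others are given where they differ in sign.

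The members, gene lists and tests were chosen with earlier results of these data known. The text names all members, up to 4 genes of a list that passed in a DEX comparison or else those of lowest p, a few growth plate genes and glucocorticoid targets, and the 5 genes most correlated with Ihh, Pth1r and Ptch1. Further list genes, such as Foxc1 and Ramp2, were picked after their values were seen.

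The array files gave the hybridization days. At 24 hrs replicate 2 was of day 1 and replicates 1 and 4 of day 2. At 6 hrs replicates 1 and 2 were of day 3 and replicate 4 of day 4. Deviations from the group means of same-numbered DEX and vehicle arrays correlated at 0.681, 0.632 and 0.863 at 6 hrs and 0.158, 0.301 and 0.220 at 24 hrs for replicates 1, 2 and 4. The numbers were taken to pair these arrays. Same-numbered arrays of a time point also shared a hybridization day, so the correlations cannot tell such a pairing from the day. Across the times these correlations were -0.0434 to 0.0892, and no pairing was used there. Alternatives were the pair or the day as a block, other minimums, 16 added before log2, quantile normalization, only the arrays compared, the methods' t-test, within-day values, the median of a gene's probe sets and each array left out. Leaving out the 4 arrays of day 3 was chosen after seeing the data.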

Additional observations from a re-analysis of the deposited data

Results flagged for a closer look

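The DEX effect on Ptch1 at 24 hrs minus that at 6 hrs, 1.00 on the log2 scale (SE 0.31, adjusted p = 1.00 in limma), is given here because every pair moved one way at 6 hrs and the opposite way at 24 hrs. DEX arrays were lower than their vehicle arrays in 3 of 3 pairs at 6 hrs and higher in 3 of 3 at 24 hrs, and the difference between the times did not pass in the test across all probe sets. The same pattern was seen in 592 of 20897 tested probe sets, and the opposite one in 635.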

How the results depend on the processing

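With the DEX and vehicle pair of a replicate number as a block, 1 member probe set passed at 24 hrs and 1 over both times, and the pathway genes that passed numbered 2 at 6 hrs. They numbered 4 at 24 hrs and 8 when the times were pooled. With the hybridization day as a block these counts were 2, 1, 2, 4 and 6, against 0, 0, 0, 0 and 3 without a block. At 24 hrs 1 member probe set also passed with only the arrays compared and by the methods' t-test at an unadjusted p under 0.01. The paper itself also set a false discovery rate in its test. By the unadjusted t-test 2 pathway genes passed at 6 hrs and 2 at 24 hrs. At 24 hrs 1 pathway gene passed with a minimum of 100, with 16 added and after quantile normalization. The share of all probe sets that passed was not counted for these settings, so these counts have no background beside them. Over both times 0 pathway genes passed with no minimum, by the methods' t-test after Benjamini and Hochberg and without day 3. Leaving out each array in turn gave 0 to 7 member probe sets for the time points in vehicle, where 0% to 31.5% of all probe sets passed, and 1 to 2 pathway genes over both times. The cause was not tested.

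Leaving out day 3 kept only replicate 4 in each 6 hrs group. Without day 3, log2 values changed sign for the time points in vehicle in Pth1r (-0.43), Gli1 (-0.20) and Gli2 (0.29), at 6 hrs in Smo (-0.099), Gli3 (0.14) and Sufu (0.027), and over both times in Gli3 (0.0028). Small values also changed sign when single arrays were left out. At 6 hrs the ranges were -0.25 to 0.50 for Ihh, -0.41 to 0.55 for Pth1r, -0.21 to 0.47 for Smo, -0.059 to 0.38 for Gli2, -0.24 to 0.21 for Gli3 and -0.26 to 0.11 for Sufu. Over both times they were -0.23 to 0.27 for Gli1, -0.20 to 0.14 for Smo and -0.19 to 0.037 for Gli3. For the difference between the times they were -0.66 to 0.020 for Smo, -0.34 to 0.11 for Gli3 and -0.27 to 0.096 for Sufu, and for vehicle over time -0.28 to 0.15 for Gli2. The 24 hrs values of all 8 tested members kept their sign in every one of these fits. Those of Smo ran over -0.31 to -0.078, Gli2 0.23 to 0.57, Gli3 -0.22 to -0.039 and Sufu -0.22 to -0.081. These ranges leave out values of a single pair and the median over a gene's probe sets. Gli1 was -0.003 in the pair of day 1. The dimmer tested sets of Smo and Sufu each had 0.15 at 24 hrs, of the other sign than the brightest. For Ihh, Pth1r and Ptch1, whose groups did not overlap at 24 hrs, leaving out a single array could not change the sign. Ihh, Gli1 and Hhip lay near background at 6 hrs, which limits what can be measured there. The median over a gene's probe sets gives no count.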
